A study of Cricetulus griseus with 3 samples.

Results

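Among the transcripts sequenced from mitotic microtubules of CHO cells, 80 of 21607 listed RefSeq transcripts had at least 10 mitotic reads and no interphase read. These 80 were chosen by that rule, on the mitotic and interphase reads themselves, so their difference between those 2 libraries is a description and carries no test. CHO is an established Chinese hamster (Cricetulus griseus) ovary line. Midbodies came from cells held in 2 mM thymidine for 16 h, released for 5 h, kept for 4 to 5 h in 0.1 ug/ml nocodazole, collected by shaking and returned to fresh medium for 65 min. Mitotic microtubules were prepared after the same steps with 15 min of fresh medium. Interphase microtubules came from cells given the thymidine hold alone. All groups were poly-A RNA of purified structures, with 1 library each. Differences therefore have no replicate behind them, and no test was possible. The samples allow RNAs of the midbody to be set beside those of earlier microtubule structures.

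Thymidine stops DNA synthesis, and nocodazole keeps cells in mitosis by blocking microtubule assembly. The midbody is the dense microtubule bridge left between daughter cells before they part. A cell line of ovarian origin is not known for making the proteins of muscle, pancreas, liver or sense organs, whose genes are usually kept silent outside their tissue. Transcription is largely shut down in mitosis. Without a whole-cell sample, binding of an RNA to the structure and its abundance in the cells cannot be told apart, and in bulk RNA neither can a few cells with much of a transcript and many cells with little.

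Assigned reads numbered 5134865 for midbodies, 8059745 for mitotic microtubules and 12672056 for interphase microtubules. Levels are given as counts per 1000000 assigned reads (CPM). Where no read was seen, up to 3 reads remain possible, equal to 0.584 CPM for midbodies, 0.372 CPM for mitotic and 0.237 CPM for interphase microtubules. Such floors and all intervals below, which are exact 95% intervals on the reads, cover counting error only, since no molecular identifiers mark the reads as separate molecules. The deepest library nevertheless listed the fewest transcripts with any read. They numbered 16528 for midbodies, 17813 for mitotic microtubules and 15636 for interphase microtubules. Of 65 fixed marker proteins of muscle, nerve, blood, epithelium, germ line and eye, 61 had a transcript in the table, and 33 of these had midbody reads, 43 mitotic reads and 28 interphase reads. Their summed level was 67.9 RPKM, which also divides by transcript length, in midbodies, 64.5 RPKM in mitotic and 44.9 RPKM in interphase microtubules, and none of the 61 was among the 80. GDF9, an oocyte growth factor, and ACTA1, skeletal muscle actin, carried much of that difference. Without these 2, picked after the values were seen, the sums were 35.8 RPKM in midbodies, 44.97 RPKM in mitotic and 39.2 RPKM in interphase microtubules. The part of these differences between libraries in the results below was not tested. The 8 housekeeping markers, such as GAPDH and ACTB, had 994 or more interphase reads each.

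The 80 transcripts were scarce. Their mitotic reads ran from 10 to 45 with a median of 13.5, and 61 of them had fewer than 20. The mitotic level was 0.192 to 7.34 RPKM with a median of 1.62, and 50 of the 80 reached 1 RPKM. They formed 0.617% of the 12971 transcripts with 10 or more mitotic reads, a share that the rule sets. The share was 8.83% of transcripts with 10 to under 15 mitotic reads (47 of 532), 2.29% at 20 to under 30 (12 of 525) and 0 of 10917 at 46 or more. Most transcripts absent from interphase were close to absent from mitosis too: 5971 had no interphase read, of which 3320 had no mitotic read either and 2571 had fewer than 10.

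At the level of the mitotic library, the 80 would have shown 15.7 to 70.8 interphase reads each and 2033 in all. Against the floor of 3 interphase reads, each was at least 5.24-fold to at least 23.6-fold higher in mitotic than in interphase microtubules. These bounds take the mitotic reads as counted, without their counting error. The rule itself asked for absent interphase reads and a minimum of mitotic reads, so it fixed the smallest bound in advance. The floor holds for a transcript named beforehand, whereas the 80 were picked for their absent interphase reads. The reads at equal level and the bounds are therefore a description of the chosen members. The opposite pattern, 10 or more interphase reads and no mitotic read, was met by 17 transcripts, with at most 25 interphase reads. With the minimum raised to the 15.7 reads that the deeper interphase library would give, it was met by 5.

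At the edges of the rule, 19 members stood at exactly 10 mitotic reads, and 12 transcripts with 9 mitotic and 0 interphase reads were left out. Of the first 3 by accession on each side, the included ones matched P08118, P01023 and Q13470 (MSMB, A2M and TNK1), with 6, 1 and 8 midbody reads. The excluded ones matched Q99102, Q86VZ4 and P25092, with 1, 1 and 5 midbody reads. On the interphase side, 7 transcripts with 10 or more mitotic reads had more than 0 but less than 1 interphase read, a fraction of a shared read, and 82 had exactly 1. All 7 were at 0.5 interphase reads. The first 3 by accession, a pair of transcripts matching P61812 and 1 matching P02792, had 5.5, 4.5 and 9.5 midbody reads beside 16.5, 17.5 and 12.5 mitotic reads.

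The authors paired 77 of the 80 with a best human protein by BLASTX, giving 76 different UniProt accessions, since Q6IFN5 was matched by 2 transcripts. Only 1 of the 80 had a gene symbol through its transcript accession, S100b, a calcium-binding protein of glia. The others are named here by the human gene of their matched accession, which is a best match and not a statement of orthology. Classes of protein were assigned after the values had been seen and are described without a test. By that grouping, 12 named classes held 58 members, and 19 matched proteins stayed outside them. The 12 include a class of 4 broadly expressed proteins, while many of the other human counterparts are known for restricted expression. The same classes were not counted in other transcripts, so these numbers do not set the 80 apart. All 80 had 0 interphase reads, so each member's values below are its midbody and mitotic reads. The midbody CPM was at or above the mitotic CPM in 12 of the 80, beside 45.4% of the 12971 transcripts with 10 or more mitotic reads, and nothing is read from a class in which lower members prevail.

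**Figure D1:**
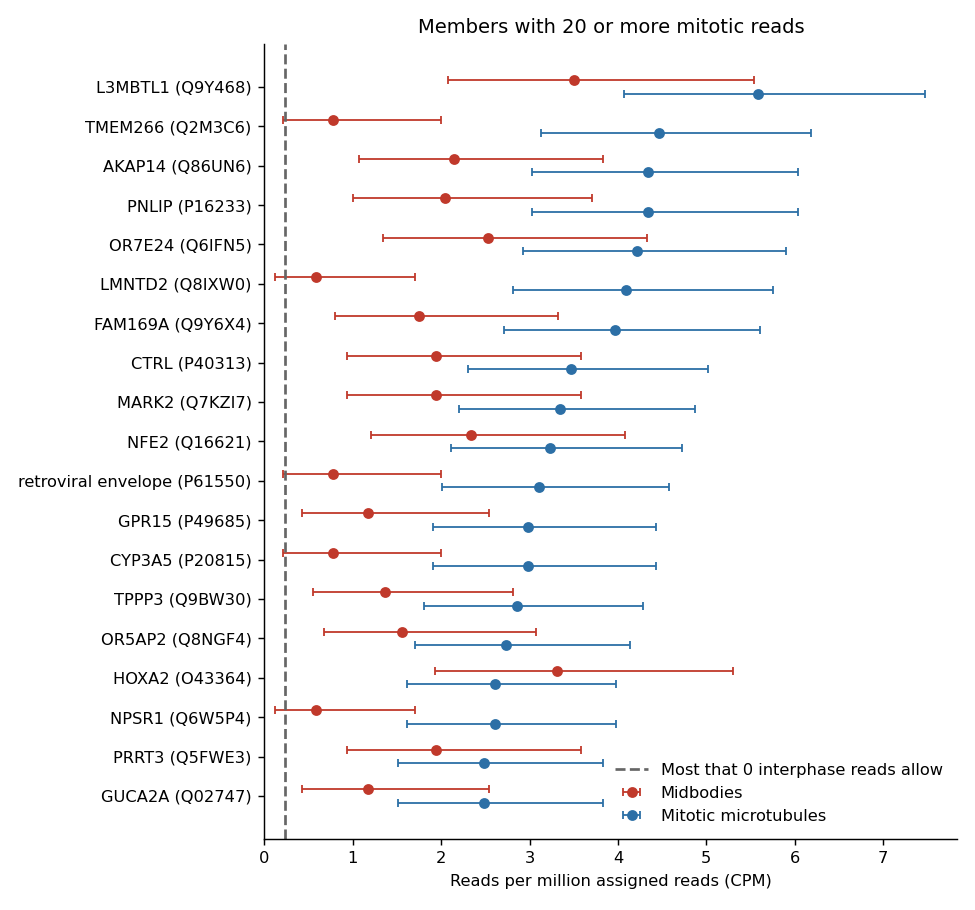
Level in CPM (x axis) of the 19 transcripts with 20 or more mitotic reads, named by human gene and UniProt accession, in midbodies (upper point) and mitotic microtubules (lower point), with exact 95% Poisson intervals; the dashed line is the 0.237 CPM that 0 interphase reads allow. All mitotic points stand far to the right of the line, which the choice by mitotic and interphase reads requires. HOXA2 is the only member of the 19 whose midbody point is to the right of its mitotic point.

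Regulators of transcription and chromatin included the member with the most reads in both libraries. L3MBTL1 (Q9Y468), a chromatin-compacting protein with malignant brain tumor repeats, had 18 midbody reads (3.51 CPM) beside 45 mitotic reads (5.58 CPM). With those reads taken as counted, this was at least 14.8-fold above interphase in midbodies and at least 23.6-fold in mitotic microtubules. Both bounds rest on the absent interphase reads for which the members were chosen. HOXA2 (O43364), a homeobox factor that patterns the hindbrain and branchial arches, had 17 midbody and 21 mitotic reads, which is 3.31 CPM in midbodies and 2.61 CPM in mitotic microtubules. The homeobox factor LHX4 (Q969G2), of pituitary development, had 4 midbody and 16 mitotic reads. HOXA2 was thus above its mitotic level in CPM, and L3MBTL1 and LHX4 were below theirs.

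Chemosensory receptors, other G protein-coupled receptors and G proteins made up 11 members. Olfactory receptors detect odorants in the nose, and the vomeronasal receptors detect pheromones in many mammals. The transcripts matching OR7E24 (Q6IFN5) had 13 and 9 midbody reads beside 34 and 14 mitotic reads. OR5AP2 (Q8NGF4) had 8 midbody and 22 mitotic reads, and OR2K2 (Q8NGT1) had 4 midbody and 14 mitotic reads. Apart from the second OR7E24 match, all of these olfactory receptors were lower in midbodies in CPM. The match to the vomeronasal receptor-like accession Q8TDU5 (VN1R17P) had 0 midbody and 11.5 mitotic reads, partly shared. Chemosensory receptors form large families of near copies, so single members are uncertain where reads are shared. A further 25 transcripts of the table had Q6IFN5 as best match, and none of them had an interphase read either. These 25 were close to absent from the other libraries too. Together with the second OR7E24 match, at 9 midbody and 14 mitotic reads, they held 11 midbody and 22 mitotic reads.

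The other receptors were GPR15 (P49685), a chemoattractant receptor of lymphocytes, with 6 midbody and 24 mitotic reads, NPSR1 (Q6W5P4), which binds neuropeptide S, with 3 midbody and 21 mitotic reads, and the orphan receptor GPR82 (Q96P67) with 10 midbody and 14 mitotic reads. RASD1 (Q9Y272), a small Ras-like G protein induced by dexamethasone, had 7 midbody and 17 mitotic reads. Of the G protein alpha subunits, GNAL (P38405), which couples olfactory receptors, had 4 midbody and 10 mitotic reads, and GNA14 (O95837), of the Gq family, had 0 midbody and 10 mitotic reads. This class ran from 0 to 10 midbody reads and 10 to 24 mitotic reads.

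Secreted proteins formed the next group of 8. PNLIP (P16233), the pancreatic lipase, had 10.5 midbody and 35 mitotic reads, partly shared. A second transcript matching the same protein had 4.5 midbody, 13 mitotic and 1 interphase reads. CTRL (P40313), a chymotrypsin-like protease of the pancreas, had 10 midbody and 28 mitotic reads. Guanylin, the gut peptide encoded by GUCA2A (Q02747), had 6 midbody and 20 mitotic reads. With a transcript of only 348 bases it was among the highest per length, at 3.36 RPKM in midbodies and 7.13 RPKM in mitotic microtubules. DHH (O43323), the hedgehog signal of Sertoli and Schwann cells, had 5 midbody and 15 mitotic reads. GHRL (Q9UBU3), the precursor of the appetite hormone ghrelin, had 7 midbody and 11 mitotic reads, a CPM ratio of 0.999. MSMB (P08118), a protein of prostatic fluid, FCGBP (Q9Y6R7), of mucus, and the plasma protease inhibitor A2M (P01023) had 6, 9 and 1 midbody reads beside 10, 12 and 10 mitotic reads. Midbody reads of the 8 ran from 1 to 10.5, and mitotic reads from 10 to 35.

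Germ cell, cilium and flagellum proteins numbered 6 and included the member with the highest midbody to mitotic ratio. RBM46 (Q8TBY0), an RNA-binding protein of germ cells, had 13 midbody and 10 mitotic reads, a ratio of 2.04 whose interval, 0.827 to 5.20, includes 1. CFAP43 (Q8NDM7), a protein of the sperm flagellum, had 11 midbody and 14 mitotic reads. AKAP14 (Q86UN6), which anchors protein kinase A in axonemes, had 11 midbody and 35 mitotic reads. Both RBM46 and CFAP43 were thus above their mitotic level in CPM and AKAP14 below it. EQTN (Q9NQ60), of the acrosome, had 6 midbody and 18 mitotic reads. ADGB (Q8N7X0), a globin of testis, had 7 midbody and 12 mitotic reads, and SAXO1 (Q8IYX7), which stabilizes axonemal microtubules, had 1 midbody and 10 mitotic reads.

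Blood cell proteins were led by NFE2 (Q16621), a transcription factor of red cell and platelet precursors, with 12 midbody and 26 mitotic reads. CST7 (O76096), a cystatin of immune cells, had 7 midbody and 10 mitotic reads. The neutrophil antigen CD177 (Q8N6Q3) had 4 midbody and 11 mitotic reads, and the lipid exporter MFSD2B (A6NFX1) had 2 midbody and 10 mitotic reads. Only CST7 of these 4 was above its mitotic level in CPM. Among neuronal and glial proteins, SLC17A7 (Q9P2U7), the vesicular glutamate transporter, had 8 midbody and 14 mitotic reads. The adhesion protein DSCAML1 (Q8TD84) had 7 midbody and 16 mitotic reads, and the netrin-G ligand LRRC4C (Q9HCJ2) had 4 midbody and 15 mitotic reads. S100B (P04271) had 5 midbody and 11 mitotic reads, and the catenin CTNND2 (Q9UQB3) had 2 midbody and 10 mitotic reads.

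Muscle proteins were TNNI2 (P48788), the inhibitory troponin of fast skeletal muscle, with 4 midbody and 17 mitotic reads, CEFIP (Q711Q0), of heart muscle, with 3 midbody and 11 mitotic reads, and MUSTN1 (Q8IVN3), a nuclear protein of the musculoskeletal system, with 1 midbody and 11 mitotic reads. The counting interval of the midbody to mitotic ratio excluded 1 for MUSTN1 but not for TNNI2 or CEFIP. Of structural proteins of matrix, enamel, lens and skin, the collagen chains COL6A6 (A6NMZ7) and COL9A2 (Q14055) had 1 and 5 midbody reads beside 16 and 10 mitotic reads. Enamelin, encoded by ENAM (Q9NRM1), had 0 midbody and 11 mitotic reads, and filaggrin, the epidermal protein encoded by FLG (P20930), had 3 midbody and 10 mitotic reads. The lens protein LENEP (Q9Y5L5), whose transcript of 186 bases is the shortest of the 80, had 5 midbody and 11 mitotic reads and the highest mitotic level, 7.34 RPKM.

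Among the members, the liver and drug metabolism enzymes had the fewest midbody reads for their mitotic reads. CYP3A5 (P20815) and CYP2C19 (P33261), cytochromes P450, had 4 and 1 midbody reads beside 24 and 14 mitotic reads. The alcohol dehydrogenase ADH4 (P08319) had 2 midbody and 10 mitotic reads, and the acyltransferase GLYATL3 (Q5SZD4) had 0 midbody and 12 mitotic reads. The 4 together had 7 midbody and 60 mitotic reads, or 5.46 times lower in midbodies after division by the library totals (interval 2.49 to 14.2). Across the other classes that factor ran from 1.09 for the transcripts without a match to 3.11 for the muscle proteins (interval 1.43 to 7.69). The difference between classes was not tested. Transcripts outside the members with the same human matches did not all follow this direction. Another CYP2C19 match had 86 midbody, 38 mitotic and 22 interphase reads, which is 11.4 RPKM in midbodies and 3.21 RPKM in mitotic microtubules. A second CYP3A5 match was lower in midbodies, at 17.4 RPKM beside 24.6 RPKM in mitotic microtubules. The remaining CYP2C19 matches had at most 3.88 midbody and 11.5 mitotic reads each.

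**Figure D2:**
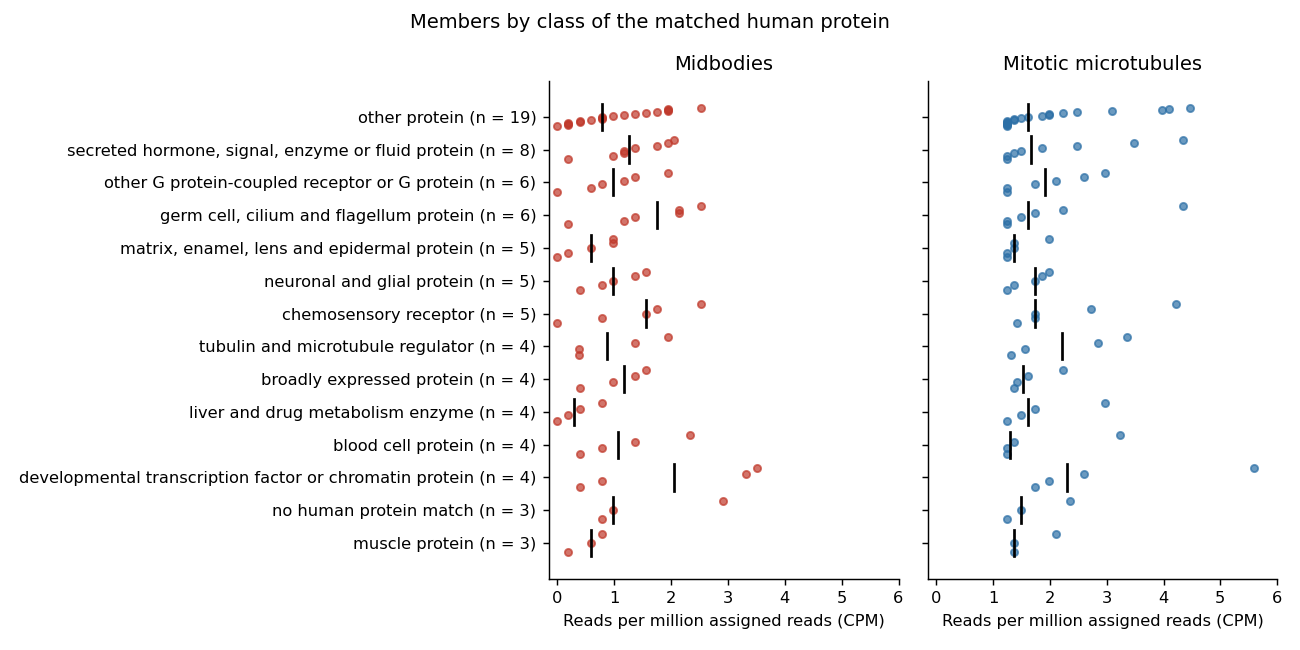
Level in CPM (x axis) of each of the 80 transcripts, by class of the matched human protein (y axis), in midbodies (left) and mitotic microtubules (right); black bars are class medians. Mitotic points begin at the 10-read minimum of the rule, whereas midbody points reach down to 0 and are lowest by median for the liver and drug metabolism enzymes.

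The members also held 4 matches to tubulins and regulators of microtubules. TPPP3 (Q9BW30), which promotes tubulin polymerization, had 7 midbody and 23 mitotic reads. The kinase match MARK2 (Q7KZI7), named for microtubule affinity, had 10 midbody and 27 mitotic reads. A further 22 transcripts had the same best match, 17 of them with interphase reads, so which kinase this member stands for is uncertain. Matches to TUBB2A (Q13885) and TUBB2B (Q9BVA1), beta-tubulins, each had 1.92 midbody reads, beside 12.7 and 10.7 mitotic reads. These tubulin counts were not whole, since reads were shared between transcripts, and tubulins are close paralogs, so both are uncertain. None of the 11 mitotic markers found in the table, such as the KIF23 and TOP2A matches, belonged to the 80, and each had 680 or more interphase reads.

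A class of 4 members matched proteins that nearly every cell makes, and for PABPC1 and SENP2 another transcript of the same human protein carried the bulk of the reads. PABPC1 (P11940), the cytoplasmic poly-A binding protein, had 7 midbody and 13 mitotic reads in the member, whereas its other transcript had 4423 midbody, 6903 mitotic and 7579 interphase reads. SENP2 (Q9HC62), a SUMO protease, had 8 midbody and 18 mitotic reads in the member and 610 midbody, 990 mitotic and 1930 interphase reads in another transcript. SEC61G (P60059), a subunit of the endoplasmic reticulum translocon, had 2 midbody and 11.5 mitotic reads, partly shared, and DHX40 (Q8IX18), a helicase, had 5 midbody and 11 mitotic reads, and neither had another transcript. Another transcript matching MARK2 had 414 midbody, 774 mitotic and 1989 interphase reads, and a second CYP3A5 match had 135 midbody, 300 mitotic and 187 interphase reads. In all, 18 of the 77 shared their human accession with another transcript, 10 with one that had interphase reads and 6 with one that had 10 or more. For the remaining 59, no other transcript of the table had that human match.

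Of the members in no class, TMEM266 (Q2M3C6), a membrane protein with a voltage sensor, had 4 midbody and 36 mitotic reads. LMNTD2 (Q8IXW0), with a lamin tail domain, had 3 midbody and 33 mitotic reads, and FAM169A (Q9Y6X4) had 9 midbody and 32 mitotic reads. A match to an endogenous retroviral envelope protein (P61550) had 4 midbody and 25 mitotic reads. Other transcripts with that envelope match had up to 26.8 interphase reads. RGCC (Q9H4X1), a regulator of the cell cycle, had 13 midbody and 16 mitotic reads. KCNK6 (Q9Y257), a potassium leak channel, had 10 midbody and 13 mitotic reads, and both were above their mitotic level in CPM. The 3 transcripts without a human match had 15, 5 and 4 midbody reads beside 19, 12 and 10 mitotic reads, the first being XM_003503069.1.

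Midbody reads did not enter the rule. Of the 80, 75 had midbody reads and 16 had 10 or more, with a median of 5 and a maximum of 18. The background was high: 99.9% of transcripts with 10 or more mitotic reads had midbody reads, and so did 99.6% of the 1962 transcripts with 10 to 45 mitotic reads that had interphase reads. The 5 members without midbody reads were GLYATL3, VN1R17P, ENAM, LRRIQ1 (Q96JM4) and GNA14. A count of 0 in the midbody library still allows 0.584 CPM. With the mitotic reads taken as counted, these 5 were at least 2.12-fold to at least 2.55-fold lower than in mitotic microtubules. With counting error in both libraries, the lower limit of that factor was 1.43 to 1.77. Every transcript with 10 or more midbody reads and no interphase read, 16 in all, was among the 80.

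In CPM, 68 of the 80 stood lower in midbodies. The 80 summed to 455 midbody reads (88.7 CPM) and 1293 mitotic reads (160 CPM), a level 1.81 times lower in midbodies (interval 1.63 to 2.02). The median log2 ratio was -0.93, beside -0.09 for the 1962 transcripts of the same mitotic range with interphase reads and -0.04 for all 12971. At least 2-fold lower in midbodies were 39 of the 80 (48.8%), against 12.6% in the same range and 3.90% of all. At least 2-fold higher was 1 (1.25%), RBM46, against 9.12% and 2.44%. The share with a midbody level at or above the mitotic level was 44.8% in the same range. The rule asked for high mitotic reads, which tilts this ratio downward in the members, so the counts are a description. Within that range, the 80 and the 1962 were also not matched in mitotic depth. Chosen instead by their summed midbody and mitotic reads, an alternative added after the data were seen, 48 transcripts without interphase reads had a median of -0.67 and 17 were at least 2-fold lower. All 48 were among the 80. Transcripts with interphase reads were not chosen in that way, so these values have no background beside them.

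Among transcripts at least 2-fold lower, the counting interval of the ratio excluded 1 for 125 of 247 in the same range and 366 of 506 of all. It did so for 21 of the 39 members. These were 21 of the 80, against 6.37% of the transcripts in the same range and 2.82% of all. They included TMEM266, lower by a factor of 5.73 (2.06 to 22.2), LMNTD2 by 7.01 (2.20 to 35.7), CYP3A5 by 3.82 (1.31 to 15.2), NPSR1 by 4.46 (1.33 to 23.4), COL6A6 by 10.2 (1.58 to 427) and KLHL33 (A6NCF5), a kelch protein with 2 midbody and 18 mitotic reads, by 5.73 (1.37 to 51.0). CYP2C19, MUSTN1, STX19 (Q8N4C7), a syntaxin, and C16orf96 (A6NNT2) each had 1 midbody read and intervals reaching 302 to 377. FAM169A, GPR15, PNLIP, AKAP14 and the envelope match, with 4 to 11 midbody reads, were lower by factors of 2.03 to 3.98. The 5 with no midbody read were also among the 21. No interval excluded 1 on the higher side, and the intervals were not adjusted for their number. These intervals also rest on the mitotic reads that chose the members.

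**Figure D3:**
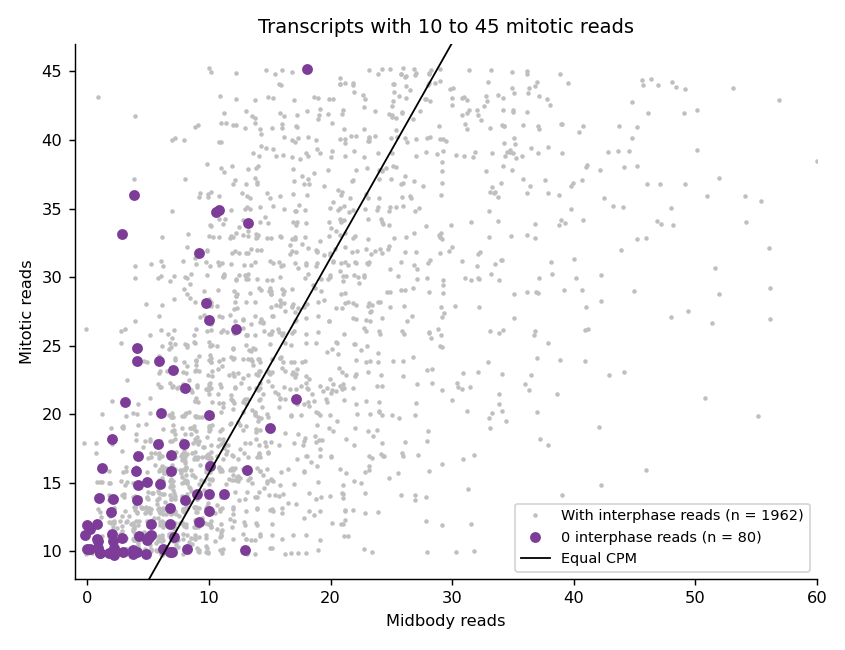
Midbody reads (x axis) against mitotic reads (y axis) for transcripts with 10 to 45 mitotic reads, the 80 without interphase reads in purple and the 1962 with interphase reads in gray, with a small random offset to separate points; 18 gray points beyond 60 midbody reads are not drawn. On the line both libraries have the same CPM, and 68 of the 80 lie above and to the left of it.

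The median midbody to mitotic ratio was lowest in the 80 and highest in transcripts with the most interphase reads, with no steady order in the middle groups. Among transcripts with 10 to 45 mitotic reads, the median log2 ratio was -0.93 at 0 interphase reads, -0.67 at over 0 to 3 (n = 249), -0.28 at over 3 to 10 (n = 336), -0.30 at over 10 to 30 (n = 387), 0.10 at over 30 to 100 (n = 533) and 0.26 at over 100 (n = 457). The share at least 2-fold lower was 48.8% in the first of these groups, 34.5% in the second and 2.63% in the last. The quartile range at 0 interphase reads, -1.22 to -0.44, overlapped that at over 0 to 3, -1.09 to -0.22. Midbody counts under 3 were set to 3 in these ratios, so the lower quartiles are limited by that floor and understate the downward spread. Median mitotic reads also differed, 13.5, 14.5 and 31 in the same 3 groups, so the groups were not matched in depth, and the part of that in the ratio was not tested.

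**Figure D4:**
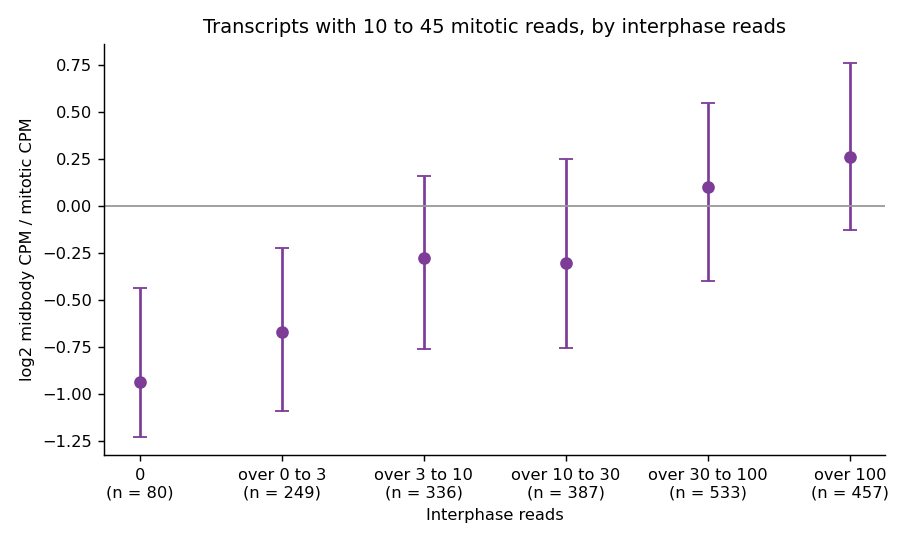
Median log2 ratio of midbody to mitotic CPM (y axis) for transcripts with 10 to 45 mitotic reads, grouped by interphase reads (x axis), with bars from the lower to the upper quartile over transcripts. The medians run from -0.93 without interphase reads to 0.26 at over 100 interphase reads.

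In median length and in the share without a human match, the 80 were close to the transcripts of the same mitotic range that had interphase reads. They differed in shared reads, and mitotic depth was not matched. The median transcript length was 1299 bases, with a range of 186 to 7740, against 1190 bases. No human match was recorded for 3.75% against 4.33%. Fractional reads, shares of reads assigned to several transcripts, occurred in 5 of the 80 (6.25%), against 30.3%; a transcript with a share of a common read in interphase could not meet the rule, so the rule itself lowers that count. The 5 were the PNLIP, TUBB2A, TUBB2B, SEC61G and VN1R17P matches.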

How the data were processed

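Poly-A RNA of 3 samples, 1 library per group, was made into Illumina TruSeq RNA version 2 libraries, per the labels' protocols. The Metaphase columns were read as the Mitosis sample, the only 1 of that stage. The deposited table gives estimated counts of reads per RefSeq transcript, unnormalized and fractional where a read was divided, and RPKM that the authors computed from them, per the file headers. The human UniProt match and its BLASTX E-value (another score, at most 1e-20) are also the authors'. Aligner, counter, strand setting and genome build: not given in the sources used here.

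CPM is reads over the column total. Ratios are plain CPM ratios with Clopper-Pearson 95% intervals on rounded reads; midbody counts under 3 were set to 3 in medians and 2-fold counts. Transcript lengths were read back from reads and RPKM. Human gene names of the accessions are general knowledge, not from the table. Gene symbols came from RefSeq assembly CriGri-PICRH-1.0, which gave 1 name among the 80. Members and lists were chosen with earlier results of these data known. Members named with values had the most mitotic or midbody reads, no midbody read, an interval that excluded 1, or led a class; others complete a class. The result of 1 member is not reported here. Alternatives changed the read minimums, scaling, pseudocount and expression filter. The ratio and its interval were tried on simulated counts. Changes were planted only in transcripts with more mitotic reads than any member had. Those counts were not chosen by the rule, so ratios after that choice were not covered. Python 3.11.15, pandas 2.3.3, NumPy 2.4.6 and SciPy 1.17.1 were used.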

Additional observations from a re-analysis of the deposited data

How the results depend on the processing

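No paired analysis was possible because each group had 1 library. With a mitotic minimum of 5 reads, 235 transcripts met the rule, 203 of them with midbody reads. The median log2 midbody to mitotic ratio of the 235 was -0.35. Low midbody counts were raised to the floor in these ratios, which limits how negative a ratio can be at few mitotic reads. The value at this lower minimum therefore cannot show whether the decrease was weaker. With a minimum of 20 reads, 19 met the rule and all 19 had midbody reads. Allowing 1 interphase read gave 169, of which 162 had midbody reads. On the log2(RPKM + 1) scale 10 members were at least 2-fold lower and 0 higher, with a median of -0.42, and 191 of all transcripts were lower. With a pseudocount of 5 these were 0 and 0, a median of -0.15, and 31 lower and 93 higher of all transcripts; with 0.1, 0 members were higher. Larger pseudocounts shrink ratios at these low levels by construction. Restricted to 1 RPKM in either library, 24 members were lower. Fewer than 80 passed that filter, and their median log2 ratio stayed at -0.93. With that filter in place of the minimum of 10 mitotic reads, 432 of all transcripts with any mitotic read were lower and 482 higher. In the members' range of mitotic reads, 286 of all transcripts were lower and 180 higher. The opposite rule fell to 5 transcripts with the scaled minimum. Chosen by summed reads, an alternative added after the data were seen, 48 members remained, 17 at least 2-fold lower, with a median of -0.67. No background was chosen by summed reads. Of 58 alternative values, 33 stayed within 1.5 times the count or, for the median, within 0.156 of the main log2 ratio. That margin came from the counting interval of the summed reads' ratio, and is not an interval of the median. The median ratio of the members was negative under every alternative run. Median of ratios and trimmed mean of M values scaling shifted ratios by less than 0.1 on the log2 scale. With 10 to 45 mitotic and 0 to 18 midbody reads per transcript, single ratios are imprecise, and a true interphase level below 0.237 CPM could not be seen at this depth.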
